A study of Mus musculus with 6 samples.

Results

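The cyclin-dependent kinase (CDK) inhibitor genes of mouse were followed in hematopoietic stem cells (HSCs) of the fetal liver with and without Dpy30. The family was taken by name: 3 CIP/KIP genes (Cdkn1a, Cdkn1b and Cdkn1c, encoding p21, p27 and p57) and 4 INK4 genes (Cdkn2a, Cdkn2b, Cdkn2c and Cdkn2d, encoding p16 with p19ARF, p15, p18 and p19). These are 7 of the 38926 genes listed in the counts. RNA was sequenced from FACS-purified HSCs of E14.5 embryos in 3 control samples (Vav-Cre; Dpy30F/+) and 3 knockout samples (Vav-Cre; Dpy30F/-). Each of 3 litters gave 1 sample of each genotype, and the labels do not say how many embryos were pooled. Both genotypes carry Vav-Cre, a Cre recombinase driven by a promoter active in blood-forming cells and also known to act in part of the endothelium. By their own genotype (Dpy30F/+), the controls are heterozygous for the floxed Dpy30 allele. The Dpy30 protein belongs to the core of the SET1/MLL enzymes, which place methyl groups on lysine 4 of histone H3.

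CDK inhibitors hold the cell cycle before S phase. The INK4 proteins bind CDK4 and CDK6 and keep them from D-type cyclins, while the CIP/KIP proteins bind whole cyclin-CDK complexes, above all those of CDK2. The retinoblastoma protein then stays unphosphorylated and keeps E2F factors from switching on replication genes. In blood-forming stem cells p57 and p27 are known for their part in quiescence, p18 for limiting self-renewal, and p21 as the classical transcriptional target of p53. Fetal liver HSCs divide actively, in contrast to adult ones.

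In units of 1000000, gene counts came to between 31.9 and 43.4 per library, of which 45.2% to 61.7% were mitochondrial ribosomal RNA. Levels are given as counts per 1000000 gene counts (CPM), with library sizes adjusted by the TMM method of edgeR. Dpy30 itself was 24.6, 24.2 and 31.6 CPM in controls 1 to 3 and 7.93, 5.95 and 13.7 CPM in knockouts 1 to 3, so every library went with its label. The summed level of 14 HSC markers (among them Kit, Hlf and Mecom) was 1012 to 1092 CPM in controls, 1342 and 1417 CPM in knockouts 1 and 2, and 673 CPM in knockout 3. Markers of other cells were also present. The sum of 10 genes of endothelium and stroma, led by Lyve1, Stab2, Cdh5 and Kdr, was 1087 to 1728 CPM in controls, 1567 and 1628 CPM in knockouts 1 and 3, and 156 CPM in knockout 2, with Dlk1 at 0 in all 6 libraries. The sum of 12 macrophage markers, all detected in every library, was 362 to 597 CPM in controls and 888, 369 and 1765 CPM in knockouts 1 to 3. Of the 12, 10 had a positive log2 fold change. DESeq2 called 3, against 1.01% of all genes, and 5 had all knockouts above all controls, against 6.39% of all genes. The low sum of knockout 2 came from Mrc1 (26.4 CPM against 180 to 359 in controls) and Vcam1. Without these genes, left out after their values were seen, the sum was 160 to 189 CPM in controls. In knockouts 1 to 3 it was 528, 339.9 and 1361 CPM. The genes left out were those low in knockout 2, so the choice itself removed the overlap. Mast cell and basophil markers summed to 0.0691 to 5.48 CPM in controls and 11.7, 6.42 and 18.2 CPM in knockouts, mostly through Cpa3, with Mcpt4, Tpsb2 and Fcer1a at 0 in all libraries. Neutrophil markers summed to 59.5 to 124 CPM in controls and 69.6, 148 and 403 CPM in knockouts. In bulk samples such as these, fewer cells of a type and less RNA per cell cannot be told apart.

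Of the 7 inhibitor genes, Cdkn1a alone had every knockout outside the range of the controls. Its level was 45.4-fold higher in the knockouts in edgeR's fit. The other 4 genes that could be tested (Cdkn1b, Cdkn1c, Cdkn2c and Cdkn2d) had knockout values overlapping those of the controls, and Cdkn2a and Cdkn2b had too few counts to enter the test. In edgeR's quasi-likelihood test over 13646 genes, 0 of the 5 tested inhibitors passed an adjusted p of 0.05, where 0% of all genes did. At an unadjusted p under 0.05 in the same test Cdkn1a was the 1 member, against 6.51% of all genes. DESeq2, run as another test, called 1.01% of all genes and, among the inhibitors, Cdkn1a only. Over all genes tested, 14.1% had groups that did not overlap, 6.39% with the knockouts above.

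**Figure D1:**
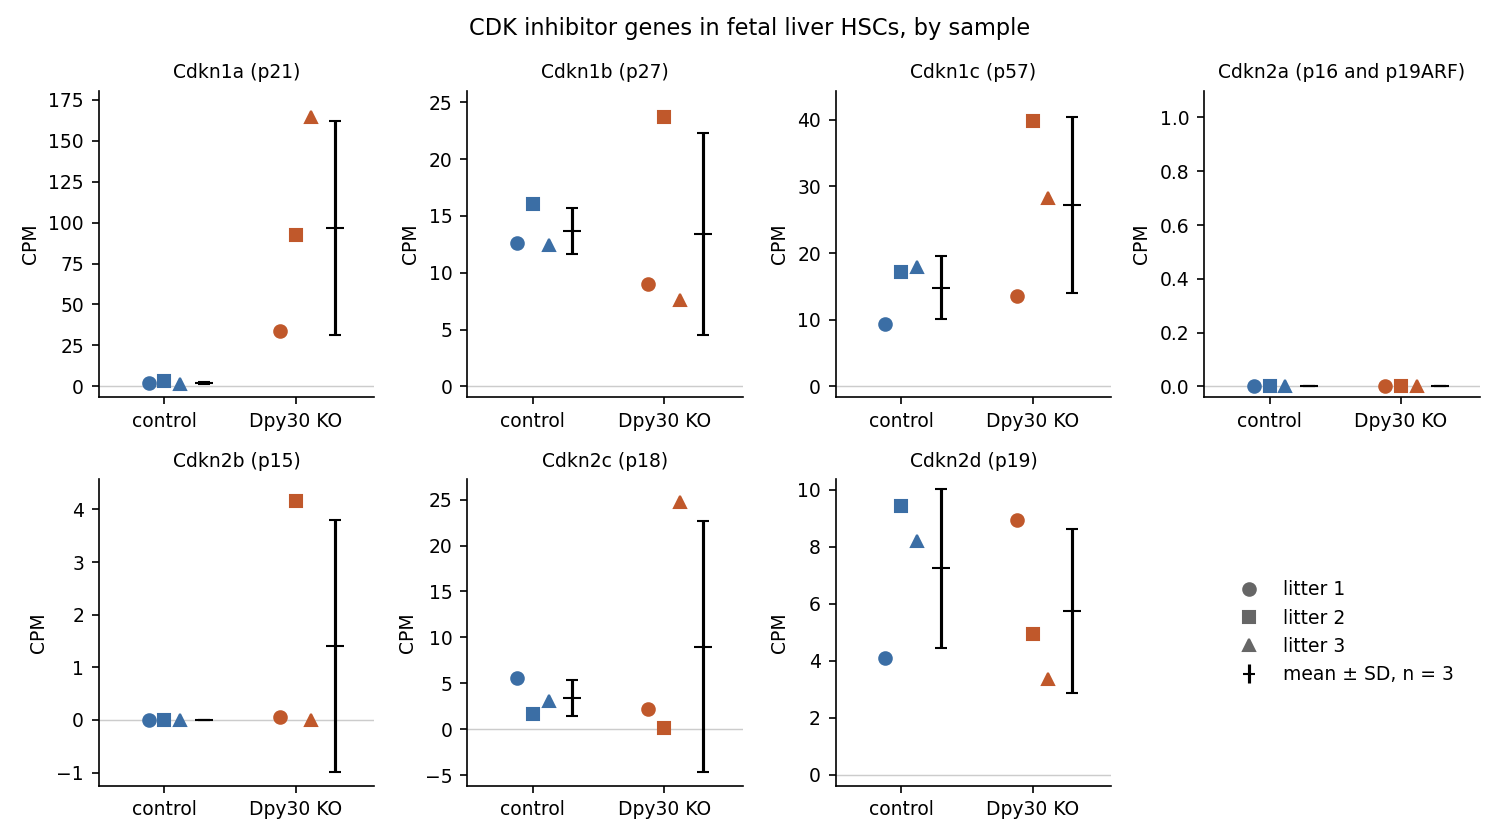
Level of each CDK inhibitor gene in CPM (vertical axes, linear, scaled per gene) in 3 control and 3 knockout samples, with litters as symbols and the mean ± SD (n = 3) beside them. Knockout Cdkn1a values of 33.5 to 164 CPM all lie above the controls, while in the other panels the groups overlap or rest on 1 knockout.

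Cdkn1a (ENSMUSG00000023067.14; chromosome 17, 29090976 to 29100727, plus strand, GRCm38; protein-coding) has a pair of transcription starts in RefSeq, and their promoters are shown because p53 acts on this gene through DNA in this region. Each runs from 250 bases before the start to 50 after it, 5′ to 3′ on the plus strand of GRCm38.p6. In the upstream promoter (chr17:29090729-29091028) the capitals mark an adjacent pair of p53 decamers, which begins 51 bases before the start. In the downstream promoter (chr17:29093519-29093818) they mark GGGCGG boxes and a TATAA, the latter beginning 25 bases before the start. The promoter of Cdkn1b (chr6:134920151-134920450, plus strand) is set beside them as that of a CIP/KIP gene whose level overlapped between genotypes, with its GGGCGG in capitals.
Cdkn1a upstream start: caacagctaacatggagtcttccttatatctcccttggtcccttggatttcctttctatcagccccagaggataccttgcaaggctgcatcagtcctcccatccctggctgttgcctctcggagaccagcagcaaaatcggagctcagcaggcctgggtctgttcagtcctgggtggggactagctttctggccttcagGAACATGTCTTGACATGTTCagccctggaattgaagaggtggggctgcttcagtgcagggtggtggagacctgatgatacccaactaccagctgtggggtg
Cdkn1a downstream start: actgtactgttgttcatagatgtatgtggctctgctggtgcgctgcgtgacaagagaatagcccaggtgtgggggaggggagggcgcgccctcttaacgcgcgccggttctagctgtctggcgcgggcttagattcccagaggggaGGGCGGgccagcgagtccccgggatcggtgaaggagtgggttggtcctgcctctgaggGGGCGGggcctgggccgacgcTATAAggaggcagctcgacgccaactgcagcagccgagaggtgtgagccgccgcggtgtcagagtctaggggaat
Cdkn1b: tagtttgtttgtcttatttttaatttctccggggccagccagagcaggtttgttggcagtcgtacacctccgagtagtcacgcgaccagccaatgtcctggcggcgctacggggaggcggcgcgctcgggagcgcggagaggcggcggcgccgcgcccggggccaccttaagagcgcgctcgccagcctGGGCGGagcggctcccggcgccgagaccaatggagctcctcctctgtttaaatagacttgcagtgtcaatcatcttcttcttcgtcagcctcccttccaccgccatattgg
The pair of decamers was searched with no gap, at most 1 mismatch over both decamers and none in their CNNG cores, where each N was A or T, a pattern that reads the same on both strands. It was found in 18 of 32851 RefSeq promoters of this length (0.0548%). Among promoters matched to the inhibitor genes and to the 30 genes of the p53 list, only the upstream promoter of Cdkn1a held it. GGGCGG on either strand was in 35.7% of all promoters and TATAA on either strand in 24.9%. The upstream promoter of Cdkn1a also holds TATAA on the minus strand, left in lower case, and no GGGCGG. The upstream promoter of Cdkn1a holds few CpG dinucleotides (observed over expected 0.0892), while its downstream promoter is CpG-rich (0.786), as is that of Cdkn1b (1.04). Over all promoters the median was 0.384. RefSeq promoters were matched for 6 of the 7 genes, 9 promoters in all. Cdkn1c had no matched promoter and was not searched, and bases outside these windows were not searched for any gene. The counts are summed over a gene, so they do not show which start was used.

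Controls 1 to 3 had 56, 112 and 64 counts of Cdkn1a, and knockouts 1 to 3 had 1333, 3355 and 5748. Scaled, the control mean was 2.13 ± 0.790 CPM and the knockout mean 96.7 ± 65.4 CPM (SD, n = 3 each). All 3 knockouts were high, and they also differed among themselves, with knockout 3 at 164 CPM and knockout 1 at 33.5 CPM. Within litters 1 to 3 the difference was 4.08, 4.92 and 6.77 on the log2 scale. The log2 fold change was 5.51 (SE 0.666; 95% interval 3.97 to 7.04; edgeR unadjusted p = 3.31e-05, the smallest of all genes; adjusted p = 0.452). An exact permutation test of the log2 CPM gave p = 0.1, the smallest it can give with 3 against 3. By log2 fold change, 27 of the 13646 genes stood higher. The gene passed the edgeR threshold when no filter on low counts was used (adjusted p = 0.0467, 0.00476% of genes called) and when at least 10 counts were required in every sample (adjusted p = 0.0434, 0.00995% called), and in DESeq2 (adjusted p = 2.28e-18). Over all alternatives its adjusted p ran from 1.08e-19 to 1.000. GENCODE places an unclassified transcript of the opposite strand over exons of Cdkn1a. The labels give no strand setting for the counting, so it is not known whether reads of both were kept apart.

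The level of Cdkn1a was compared with the markers of other cells. Of the 12 macrophage markers, 5 had all knockouts above all controls, against 6.39% of all tested genes. Among these was Csf1r, the receptor for a macrophage growth factor. It was 8.91 to 39.1 CPM in controls and 75.7, 92.4 and 141 CPM in knockouts 1 to 3. The sum of all 12 overlapped between genotypes, with knockout 2 at 369 CPM against 362 to 597 CPM in controls. Without Mrc1 and Vcam1, left out after their values were seen, the sum was above the controls in all 3 knockouts. Both genes were low in knockout 2, so leaving them out by itself removed the overlap. In the sum of the remaining 10, knockout 2 (339.9 CPM) was below knockout 1 (528 CPM), while Cdkn1a was higher in knockout 2. Csf1r, by contrast, had the same order of knockouts as Cdkn1a. The sum of 8 mast cell and basophil markers had no overlap between genotypes. Only 1 of the 8, Cpa3, had all knockouts above all controls, against 6.39% of all tested genes. Cpa3 was 4.08 CPM in knockout 2 and 3.72 CPM in control 2. The part of these cells in the Cdkn1a level was not tested. Endothelial genes were below all controls in knockout 2, where Cdkn1a was 92.5 CPM, and the part of endothelial cells was not tested either. Without knockout 2 the log2 fold change of Cdkn1a was 5.54 (SE 0.720). Without knockout 3, where macrophage and neutrophil markers were highest, it was 4.90 (SE 0.568). Both fits keep knockout 1, where the sum of all 12 macrophage markers (888 CPM) was also above the controls. The ratio of Cdkn1a to Cdkn1b counts within a library, which no scaling can alter, took values of 0.153, 0.187 and 0.117 over the controls, against 3.72, 3.91 and 21.7 over knockouts 1 to 3. The ratio of Cdkn1a to Cdkn1c was 0.0812 to 0.206 in controls and 2.32 to 5.81 in knockouts. Both ratios were above the controls in all 3 knockouts (exact permutation p = 0.1 each, the smallest possible). Both have Cdkn1a on top, so they repeat its rise and are not separate evidence. They do not test the part of other cells.

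Cdkn1b (ENSMUSG00000003031.14; chromosome 6, 134920401 to 134925513, plus strand), whose product p27 is controlled largely by its degradation, had 365, 599 and 549 counts in controls and 358, 859 and 265 in knockouts. In CPM these were 12.6, 16.02 and 12.5, and 9.01, 23.7 and 7.57. The highest and the 2 lowest values were all in knockouts. The log2 fold change was -0.03 (SE 0.569; 95% interval -1.34 to 1.28; edgeR adjusted p = 0.995), so the interval still holds changes past 2-fold in either direction. The sign turned with the scaling, to 0.12 with library size only, and with 1 library left out, to 0.19 without knockout 1, 0.26 without knockout 3 and 0.10 without control 2.

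Cdkn1c (ENSMUSG00000037664.13; chromosome 7, 143458339 to 143461050, minus strand), an imprinted gene expressed from the maternal allele, had 272, 641 and 788 counts in controls and 537, 1444 and 990 in knockouts. Its level was 9.39, 17.1 and 17.9 CPM in controls and 13.5, 39.8 and 28.3 CPM in knockouts. Knockouts 2 and 3 were above all controls, and knockout 1 lay among them. In every litter the knockout was the higher of the pair, by 0.52, 1.21 and 0.66 on the log2 scale. In litter 1 this depends on the pairing, since knockout 1 was above control 1 only. Over all tested genes, samples of a litter did not deviate from their genotype means together (correlation -0.02, -0.08 and 0.003 in litters 1 to 3). The log2 fold change of 0.88 (SE 0.508; 95% interval -0.29 to 2.05) did not pass (edgeR adjusted p = 0.824; exact permutation p = 0.3). Without knockout 1 it was 1.20 and without knockout 2 it was 0.50, and in neither fit did it pass (edgeR adjusted p = 0.365 and 0.806). An antisense gene, Gm44732, overlaps its exons in GENCODE and has no row of its own in the counts.

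**Figure D2:**
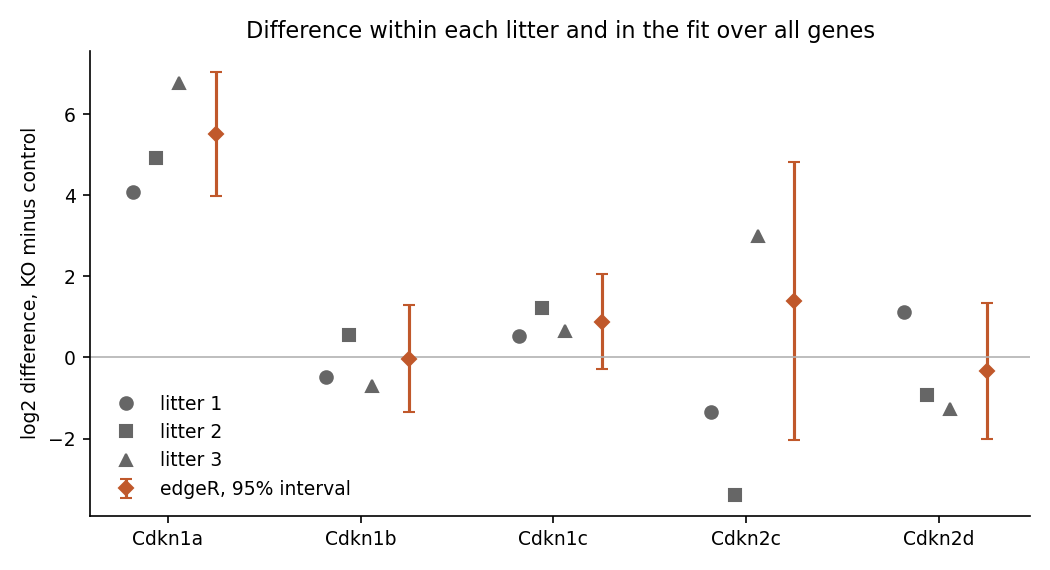
Difference between knockout and control for the 5 tested inhibitors, on the log2 scale (vertical axis), within each litter (grey symbols, log2 CPM) and as the edgeR log2 fold change with its 95% interval (diamonds). Cdkn1a lies at 4.08 to 6.77 in the litters and Cdkn1c at 0.52 to 1.21, while the other 3 genes have litters on both sides of 0. For Cdkn1c, knockout 1 was above control 1 but below controls 2 and 3.

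The INK4 genes showed no common direction. Cdkn2a (ENSMUSG00000044303.6; chromosome 4, 89274471 to 89294653, minus strand), which encodes both p16 and the p53 activator p19ARF from separate first exons, had 0 counts in all 6 libraries. A count of 0 allows up to 3 counts, or 0.0680 to 0.104 CPM depending on the library, and this limit covers counting error only. RNA of this gene was therefore not detectable in either genotype at this depth. Both transcripts would be counted in the same row.

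Cdkn2b (ENSMUSG00000073802.5; chromosome 4, 89306299 to 89311039, minus strand), the neighbour of Cdkn2a that encodes p15, had 0 counts in each control and 2, 151 and 0 in knockouts 1 to 3. The 151 counts of knockout 2 correspond to 4.16 CPM. Knockout 3, with the highest Cdkn1a of all libraries, had none. The signal thus rests on 1 library, the one with the lowest levels of the endothelial genes Lyve1, Stab2, Cdh5 and Kdr. Of the stromal genes, Col1a2 (8.27 CPM) and Col3a1 (6.97 CPM) were higher there than in any other library. Others were not: Col1a1 was 5.51 CPM against 7.65 CPM in control 2, and Dcn 0.331 CPM against 3.40 CPM in control 3. Dlk1 was 0 in all libraries. The part of such cells in this signal was not tested, and the gene did not enter the test because too few samples had counts.

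Cdkn2c (ENSMUSG00000028551.14; chromosome 4, 109660876 to 109667189, minus strand), which encodes p18, varied most among the 5 tested inhibitors within each genotype. It had 161, 62 and 136 counts in controls and 86, 4 and 867 in knockouts, or 5.56, 1.66 and 3.08 CPM and 2.16, 0.110 and 24.8 CPM. The lowest and the highest library were both knockouts. The range over the 3 knockouts was 7.24 on the log2 scale, wider than in 97.5% of the tested genes, against a median range of 1.70. Its log2 fold change of 1.39 (SE 1.49; edgeR adjusted p = 0.913) had no stable sign, being -0.92 with litter as a block and -1.57 without knockout 3. In knockout 3 the sum of 9 erythroid markers was 2366 CPM, against 713 to 1720 CPM in controls, and macrophage markers were highest there too. In knockout 2 the endothelial genes were lowest. The part of these cells in the Cdkn2c values was not tested.

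Cdkn2d (ENSMUSG00000096472.2; chromosome 9, 21288410 to 21291407, minus strand), which encodes the INK4 protein p19, unrelated to p19ARF, had 119, 353 and 362 counts in controls and 356, 179 and 118 in knockouts. Its level was 4.11, 9.44 and 8.21 CPM in controls and 8.96, 4.93 and 3.37 CPM in knockouts. Each genotype held both low and high libraries, and the litters went apart, with differences of 1.11, -0.93 and -1.27 on the log2 scale. The log2 fold change of -0.33 (SE 0.729; 95% interval -2.01 to 1.35) did not pass (edgeR adjusted p = 0.965).

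Levels were compared between genes as CPM per kilobase of exon, with exon lengths from GENCODE. In controls the order of the means was Cdkn1c (7.26 ± 2.30), Cdkn2d (4.61 ± 1.77), Cdkn1b (3.01 ± 0.443), Cdkn2c (1.28 ± 0.735) and Cdkn1a (0.599 ± 0.222; SD, n = 3 each), with Cdkn2a and Cdkn2b at 0. Neighbours in this order overlapped in range, except that all Cdkn1b values were above all of Cdkn2c and all Cdkn1a values above 0. Cdkn1a was thus the lowest of the 5 inhibitors detected in controls. In knockouts its mean of 27.2 ± 18.4 was the highest, before Cdkn1c (13.3 ± 6.46), Cdkn2d (3.66 ± 1.83), Cdkn2c (3.36 ± 5.09), Cdkn1b (2.95 ± 1.96) and Cdkn2b (1.01 ± 1.72). Of the neighbours in the knockouts, only Cdkn1c and Cdkn2d did not overlap in range. With the longest transcript as the length, Cdkn1a was 1.02 in controls and 46.5 in knockouts.

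The CIP/KIP genes were also taken as shares of their sum. On the scale per length, p21 held 6.87%, 6.60% and 3.43% of the summed CIP/KIP level over controls 1 to 3, against 52.3%, 51.3% and 74.8% over the knockouts. The groups did not overlap, and 3 against 3 samples cannot give an exact permutation p below 0.1. The summed level was 7.92, 12.8 and 11.9 CPM per kilobase in controls and 18.05, 50.7 and 61.7 in knockouts. Without p21, the sum of p27 and p57 was 7.38 to 11.9 in controls and 8.61, 24.7 and 15.5 in knockouts, and there the groups overlapped through knockout 1. With the longest transcript as the length, p21 held 8.83% on average in controls.

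**Figure D3:**
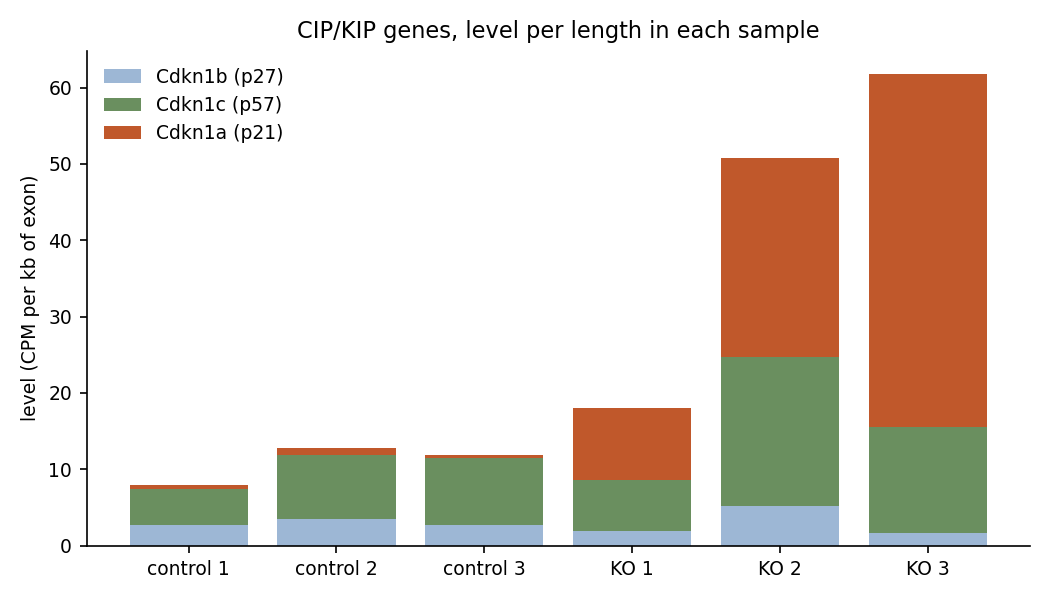
Level per length of the 3 CIP/KIP genes stacked in each sample (vertical axis, CPM per kilobase of exon, from 0). The p21 segment is 3.43% to 6.87% of the bar in controls and 51.3% to 74.8% in knockouts.

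The genes next to the inhibitors on the chromosome gave a local comparison. On either side of Cdkn1a, the nearest tested protein-coding genes were Srsf3, a splicing factor gene 47.6 kb away, and Ppil1, 150 kb away. Srsf3 was 263 CPM on average in controls and 191 in knockouts (log2 fold change -0.47, SE 0.259; edgeR adjusted p = 0.802), and Ppil1 28.01 and 28.2 CPM (0.01, SE 0.424; edgeR adjusted p = 0.998). Beside Cdkn1c, Nap1l4 had a log2 fold change of -0.21 (SE 0.259) and Kcnq1, at 0.852 and 1.41 CPM, one of 0.72 (SE 1.64). Next to the Cdkn2a and Cdkn2b pair, Mtap was 48.02 CPM in controls and 30.6 in knockouts (-0.65, SE 0.391), and Elavl2 was under 2 CPM in both genotypes. The neighbours of Cdkn1b (Gpr19 and Apold1), of Cdkn2c (Rnf11 and Faf1) and of Cdkn2d (Kri1 and Slc44a2) had log2 fold changes of -0.58 to 0.54, and none of these neighbours passed in edgeR.

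For each tested inhibitor, the genes whose log2 CPM ran most like it over the 6 samples were sought among the 9018 others with a mean of at least 5 CPM, leaving predicted genes unnamed. Tgfb1 (Pearson r = 0.995), Xpnpep3 (0.993) and Ndufa2 (0.993) were closest to Cdkn1a. For Cdkn1b, where 1 predicted gene was passed over, these were Eif4ebp2 (0.995), Haus7 (0.985) and Anp32e (0.983), and for Cdkn1c Adnp2 (0.986), Uros (0.984) and Phf3 (0.981). Grk6 (0.998), Ermp1 (0.993) and Pex5 (0.990) followed Cdkn2c, and Slc25a46 (0.990), Sass6 (0.983) and Arhgef17 (0.9751) followed Cdkn2d. With 6 samples and this many genes, high values of r arise easily, all points share their library's scaling, and the values are descriptive. Among the inhibitors, Cdkn1b and Cdkn2c ran most strongly against each other (r = -0.878), and Cdkn1a with Cdkn1c most strongly together (r = 0.6998).

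The kinases and cyclins that the inhibitors act on were followed as a list of 14 genes, all of them tested. None passed in edgeR or DESeq2, and at an unadjusted p under 0.05 in edgeR 1 was higher and 1 lower (4.26% and 2.24% of all genes). The median log2 fold change was -0.35, beside 0.01 over all tested genes. Cdk6, a kinase bound by INK4 proteins, was 210, 196 and 219 CPM in controls and 151, 103 and 165 CPM in knockouts. All 3 knockouts lay below all controls (log2 fold change -0.58, SE 0.235; edgeR adjusted p = 0.758), as they did for 7.74% of all genes. Ccnd2, which encodes the D-type cyclin partner cyclin D2, was 106, 87.6 and 109 CPM in controls and 103, 213 and 240 CPM in knockouts. Knockouts 2 and 3 were above all controls and knockout 1 among them (0.88, SE 0.326; edgeR adjusted p = 0.729). Ccnd3, a further D-type cyclin gene, had 32.8 to 52.6 CPM in controls and 30.4, 82.3 and 95.3 CPM in knockouts (0.80, SE 0.442). Cdk2, the kinase that p21 and p27 restrain, was 11.8 to 21.7 CPM in controls and 9.18, 35.4 and 40.7 CPM in knockouts (0.85, SE 0.585). Ccne1, which encodes its S-phase entry partner cyclin E1, had a log2 fold change of -0.73 (SE 0.563), Ccna2 one of -0.43 (SE 0.249) and Cdk1, the mitotic kinase, one of -0.43 (SE 0.349). Cdk4 (-0.11, SE 0.282) and Ccnd1 (0.37, SE 0.364) had smaller values. Of the others, Cdk7 (-0.69, SE 0.529), Ccne2 (-0.60, SE 0.606), Ccnb1 (-0.54, SE 0.428) and Ccnb2 (-0.27, SE 0.517) were negative and Ccnh was 0.04 (SE 0.515). None of these genes passed.

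Downstream, 17 genes of the retinoblastoma family, the E2F factors and the DREAM complex were tested, of which 0 passed in edgeR or DESeq2. At an unadjusted p under 0.05 in edgeR, 2 were higher and 1 lower (4.26% and 2.24% of all genes). All knockouts were above all controls for 1 of the 17 and below them for 3 (6.39% and 7.74% of all genes). Rb1, the retinoblastoma gene, was 47.6 to 56.4 CPM in controls and 49.99, 87.4 and 195 CPM in knockouts (log2 fold change 1.12, SE 0.460; edgeR adjusted p = 0.758). Rbl2, which encodes the related pocket protein p130, was 18.6 to 28.1 CPM in controls and 45.99, 39.7 and 31.8 CPM in knockouts, with no overlap (0.77, SE 0.332; edgeR adjusted p = 0.762). Tfdp1, the dimer partner of E2F factors, was 44.99 to 57.3 CPM in controls and 29.9 to 37.5 CPM in knockouts (-0.64, SE 0.272; edgeR adjusted p = 0.762). The median of the list was -0.05, and turned to 0.16 with library size only.

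Among 31 genes of S phase and mitosis, 28 had a negative log2 fold change, with a median of -0.42, and the median was also negative under every scaling tried. None passed in edgeR or DESeq2, and 6 were lower and 0 higher at an unadjusted p under 0.05 in edgeR (2.24% and 4.26% of all genes). All knockouts were below all controls for 9 of the 31, against 7.74% of all genes. Cdc20, an activator of the anaphase-promoting complex, was 35.4, 24.9 and 32.6 CPM in controls and 8.35, 13.9 and 4.03 CPM in knockouts (log2 fold change -1.82, SE 0.523; edgeR adjusted p = 0.668). Mcm6, a subunit of the replicative helicase, was 192 to 204 CPM in controls and 113 to 146 CPM in knockouts (-0.61, SE 0.1998; edgeR adjusted p = 0.709). Rrm1, a subunit of ribonucleotide reductase, was 256 to 297 CPM in controls and 120 to 214 CPM in knockouts (-0.73, SE 0.249; edgeR adjusted p = 0.721).

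For p53, which acts upstream of p21, 30 genes were tested, namely Trp53, regulators of p53 and other p53 targets. Earlier results of these samples were known when the list was written, so its direction is not independent evidence. Of the 30, 25 had a positive log2 fold change (median 1.36; 0.72 without knockout 3), and 11 had all knockouts above all controls, against 6.39% of all genes; the 11 include Sesn2 by a margin too small to print. None passed in edgeR. At an unadjusted p under 0.05 in edgeR, 9 were higher and 0 lower (4.26% and 2.24% of all genes), and DESeq2 called 2 higher, Ccng1 and Sesn2 (0.762% of all genes). Ccng1, which encodes cyclin G1, was 88.1, 71.03 and 82.04 CPM in controls and 161, 230 and 364 CPM in knockouts, the same order of knockouts as for Cdkn1a (log2 fold change 1.65, SE 0.316; edgeR adjusted p = 0.571). Bbc3, the gene of the cell death protein PUMA, was 0.0267 to 0.173 CPM in controls and 1.79, 1.27 and 3.17 CPM in knockouts (4.39, SE 1.33; edgeR adjusted p = 0.672), so a few counts carry the control side. Sesn2, a stress-response gene, was 0.794 to 6.79 CPM in controls and 6.79, 32.6 and 57.4 CPM in knockouts, with knockout 1 level with the highest control (3.09, SE 0.966; edgeR adjusted p = 0.686). The mRNA of p53 itself, Trp53, was 208 to 237 CPM in controls and 219 to 228 CPM in knockouts (0.03, SE 0.182).

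**Figure D4:**
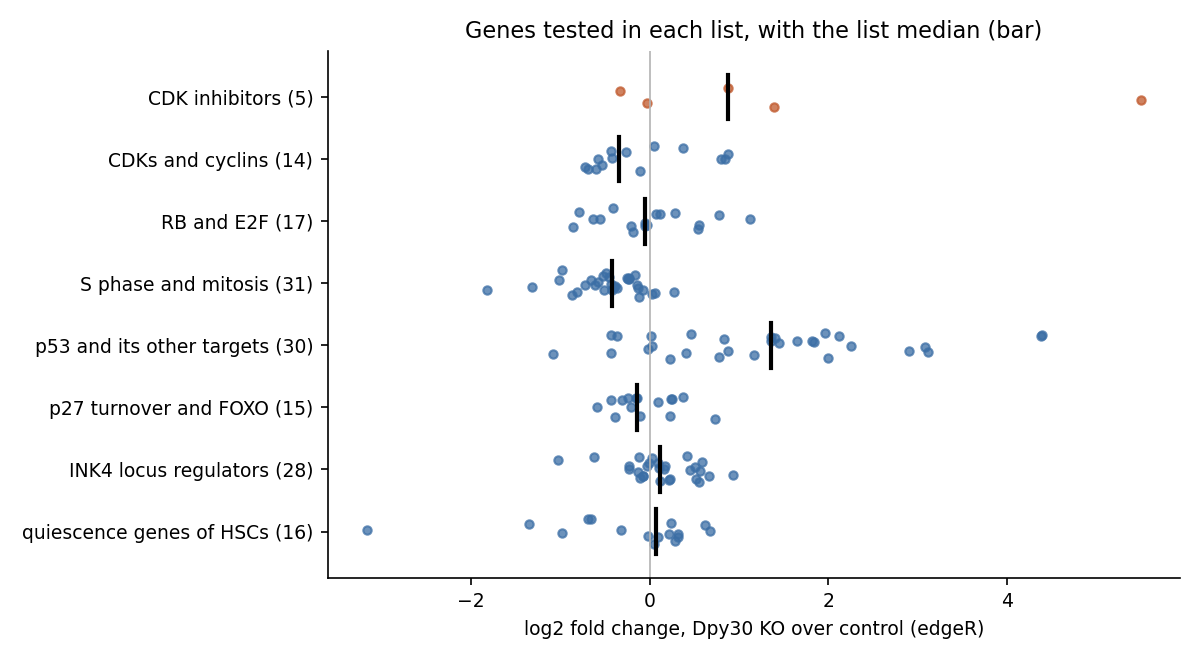
Log2 fold change of knockout over control (horizontal axis, edgeR) for each tested gene of the inhibitor family (orange) and of 7 related lists (blue), with the number tested in brackets and a bar at each median. The p53 list has its median at 1.36 and S phase and mitosis at -0.42, while Cdkn1a at 5.51 lies beyond every other point drawn.

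Regulators of the other inhibitors were followed in the same way. Of 15 genes of p27 turnover and FOXO signalling, 0 passed in edgeR or DESeq2 and 0 had an unadjusted p under 0.05 in edgeR, with a median of -0.14 that turned to 0.09 with library size only. Skp1a (log2 fold change -0.39, SE 0.245) and Akt1 (0.73, SE 0.517) were among the 3 genes of smallest p. Of 28 regulators of the INK4 locus, among them Polycomb and MLL genes, likewise 0 passed and 0 had an unadjusted p under 0.05 in edgeR. Their median of 0.11 turned to -0.01 with upper-quartile scaling. Myc was 179 to 211 CPM in controls and 297, 347 and 209 CPM in knockouts (0.50, SE 0.237), Phc1, a Polycomb gene, had a log2 fold change of 0.66 (SE 0.322) and Kdm6b, a histone demethylase gene, one of 0.59 (SE 0.330). Of 16 genes tied to stem cell quiescence, 0 passed and 0 had an unadjusted p under 0.05 in edgeR, with a median of 0.07 that had no stable sign: it was -0.03 with upper-quartile scaling, -0.16 with limma-voom, -0.15 with litter as a block and -0.45 without knockout 2. In that list Nr4a2 was 1.605 to 6.63 CPM in controls and 1.33, 0.220 and 0.0571 CPM in knockouts (-3.17, SE 1.40; edgeR adjusted p = 0.775), and Tek (-0.70, SE 0.347) and Txnip (0.62, SE 0.406) followed by p-value.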

How the data were processed

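RNA of purified fetal liver HSCs was selected for poly(A) and sequenced, per the labels' protocols. For each of 6 samples the authors deposited raw counts of reads by gene symbol. Per the submitters' processing notes, mm10 and CASAVA 1.8.4, TopHat2, Picard 1.126, HTSeq 0.6.0, DESeq 3.0 and bedtools 2.17.0 were used, with no role given. Annotation and strand setting are not given in the sources used here. The 5 tallies of unassigned reads (41.0% to 51.0% of all reads) were left out.

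Genes were kept with filterByExpr (13646 genes), scaled by TMM and tested with edgeR 4.0.16 (R 4.3.3) quasi-likelihood between genotypes and with no term for litter. Adjustment was by Benjamini-Hochberg over all tested genes, and the threshold was 0.05. Alternatives were DESeq2 1.42.0, limma-voom (limma 3.58.1), other scalings, other filters on low counts, litter as a block and each sample left out. Log2 CPM used a prior count of 2. The genotype label set the groups and the litter label the pairs. The correlation of deviations from the genotype means was -0.02, -0.08 and 0.003 in litters 1 to 3. The procedure was also run on simulated data, and the outcome is not reported here.

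The members and lists were chosen with earlier results of these data known. Genes were named by rule: all inhibitors, the CDK and cyclin list, up to 3 genes of smallest p in each other list, the nearest tested neighbours and the 3 genes most like each inhibitor. Predicted genes were passed over. A gene that the rule names in the p27 list is not reported here. Trp53 and single marker genes stand outside the rule and were named after their values were seen. Exon lengths and coordinates come from GENCODE M21 (GRCm38), promoters from RefSeq (GRCm38.p6).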

Additional observations from a re-analysis of the deposited data

Results flagged for a closer look

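Cdkn2b, which the low-count filter left out of the test, had 151 counts in knockout 2 (4.16 CPM) and 0 counts in every control, where a count of 0 allows up to 3. Knockouts 1 and 3 had 2 and 0 counts, so the signal was seen in 1 of 3 knockouts and was not tested between genotypes.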

How the results depend on the processing

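With 3 samples a genotype and a wide spread among knockouts, changes of the size seen in Cdkn1c could not be separated from the spread between samples. The count of genes past the threshold was 0 in edgeR and became 1 without a filter on low counts, 1 with at least 10 counts in every sample, 138 with DESeq2 and 277 with DESeq2 and litter as a block, the last chosen after seeing the data. Among the inhibitors 1 passed in each of these 4 fits, Cdkn1a, with log2 fold changes of 5.50, 5.48, 5.53 and 5.29. With edgeR and litter as a replicate block 0 genes passed, and the log2 fold change of Cdkn1a was 5.27 (adjusted p = 0.873). In edgeR the block changed no call. Leaving out 1 sample gave 0 passing genes and 0 passing inhibitors in all 6 fits, with 4.90 to 5.91 for Cdkn1a.

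Cdkn1b turned to 0.12 with library size only and ranged from -0.72 to 0.26 when 1 sample was left out. Cdkn2c turned to -0.67 with limma-voom, -0.92 with the block in edgeR and -0.93 with the block in DESeq2, and ranged from -1.57 to 1.97 when 1 sample was left out. It has no value with at least 10 counts in every sample. The cause was not tested. Cdkn1c (0.50 to 1.20) and Cdkn2d (-0.80 to -0.05) kept their sign in all 15 alternatives.

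Library size only moved the median log2 fold change of all genes from 0.01 to 0.23, and upper-quartile scaling moved it to -0.10. With library size only the list medians were 0.16 for retinoblastoma and E2F, 0.093 for p27 turnover and 0.35 for INK4 regulators. The INK4 regulators gave -0.013 with upper-quartile scaling, -0.029 with limma-voom and 0.035 with the block, and 0.015 to 0.23 when 1 sample was left out. Leaving out 1 sample gave -0.27 to 0.035 for p27 turnover and 0.72 to 1.46 for the p53 list, the lowest without knockout 3, and -0.45 to 0.19 for the quiescence genes, the lowest without knockout 2. With the longest transcript as the length, Cdkn1a was 1.02 CPM per kilobase in controls and 46.5 in knockouts, and p21 held 8.83% of the CIP/KIP level in controls. When 1 sample was left out that share ranged from 5.02% to 6.74% in controls and from 51.8% to 63.6% in knockouts.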

Other observations

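Genes that share the Cdkn prefix without encoding CDK inhibitors were looked at after their values were seen. Cdkn2aip, which encodes a protein that binds p19ARF, was 7.70, 18.03 and 7.76 CPM in controls 1 to 3 and 3.27, 0.992 and 0.9996 CPM in knockouts 1 to 3. All knockouts were below all controls (log2 fold change -2.67, SE 0.857; edgeR unadjusted p = 0.0143, adjusted p = 0.709; DESeq2 adjusted p = 0.0877), and the test was not passed in either tool. Its partner by name, Cdkn2aipnl, was 17.3, 26.1 and 40.3 CPM in controls and 12.4, 15.2 and 11.9 CPM in knockouts, again with no overlap (-1.08, SE 0.436; edgeR adjusted p = 0.753). Over all tested genes, 7.74% had every knockout below every control. Cdkn3, which encodes a phosphatase acting on CDKs, overlapped between genotypes, with 3.49 to 5.75 CPM in controls and 3.07, 1.65 and 9.88 CPM in knockouts (0.09, SE 0.907).

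Knockout 2 stood apart in its low endothelial genes. Lyve1 was 444, 656 and 411 CPM in controls and 525, 28.9 and 727 CPM in knockouts 1 to 3, and Stab2 was 317 to 479 CPM in controls and 534, 24.6 and 359 CPM in knockouts.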
